A study of Mus musculus with 12 samples.

Results

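H2-Aa, H2-Ab1, H2-Eb1 and H2-Ob are genes of the major histocompatibility complex (MHC) class II, and all 4 lie on mouse chromosome 17. They were chosen by name among the 780 genes of a targeted tumour signalling panel, by a rule that uses no measured value, though with earlier results of these data known. Reporter counts were obtained from ileum RNA of 12 mice, 3 in each of 4 groups, picked at random from the 8 mice assigned to a group. Treatment lasted 28 days: the control group had oral DMSO each day, 2 groups had oral STP1002 each day at 5 or at 10 mg/kg, and the last had 2 intraperitoneal injections of G007-LK per day at 30 mg/kg. All groups are compared with the same 3 DMSO mice, and the injected mice have no injected control. Both compounds inhibit tankyrases, enzymes that mark axin for degradation in the Wnt pathway. The labels used here name no strain, age, genotype or allele. All 5 epithelial genes of a marker list, Epcam and Cdh1 among them, were above background in all 12 libraries.

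MHC class II molecules are pairs of an alpha and a beta chain that carry peptides from ingested proteins to the surface of B cells, dendritic cells and macrophages, where CD4+ T cells read them. H2-Aa and H2-Ab1 encode the alpha and beta chains of I-A, and H2-Eb1 encodes the beta chain of I-E. H2-Ob encodes the beta chain of H2-O (DO), which binds H2-DM and restrains its loading of peptides, and is best known from B cells. Class II genes share an upstream control region with X and Y boxes, where the coactivator CIITA is recruited, and epithelial cells of the small intestine can also carry class II.

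The promoters are shown because 3 of the 4 members, H2-Aa, H2-Eb1 and H2-Ob, carry this shared arrangement, read here from RefSeq sequence on the GRCm38.p6 build. Capitals mark the X core GCAAC and the Y core GATTGG. Each line gives the 250 bases before the annotated start of the gene, 5′ to 3′ on the strand of the gene. The H2-Aa stretch is chr17:34287824-34288073 on the minus strand, the H2-Eb1 stretch chr17:34305617-34305866 on the plus strand, and the H2-Ob stretch chr17:34238655-34238904 on the plus strand.
H2-Aa: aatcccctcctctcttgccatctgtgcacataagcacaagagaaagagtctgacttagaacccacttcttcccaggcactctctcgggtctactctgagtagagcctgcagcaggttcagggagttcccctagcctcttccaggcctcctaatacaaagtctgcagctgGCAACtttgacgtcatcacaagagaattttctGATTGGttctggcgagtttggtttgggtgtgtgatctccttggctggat
H2-Eb1: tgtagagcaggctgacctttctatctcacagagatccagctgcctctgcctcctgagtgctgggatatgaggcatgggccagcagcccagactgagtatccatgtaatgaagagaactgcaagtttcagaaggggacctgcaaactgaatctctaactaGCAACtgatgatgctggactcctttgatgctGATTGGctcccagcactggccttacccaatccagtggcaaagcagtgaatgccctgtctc
H2-Ob: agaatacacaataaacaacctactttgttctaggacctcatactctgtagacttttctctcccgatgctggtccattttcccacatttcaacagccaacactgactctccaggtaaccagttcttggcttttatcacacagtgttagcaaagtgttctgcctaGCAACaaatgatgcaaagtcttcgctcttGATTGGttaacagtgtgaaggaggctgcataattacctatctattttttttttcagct

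From the first base of GCAAC to the first base of GATTGG the distance was 32 bases in H2-Aa, 31 in H2-Eb1 and 29 in H2-Ob. The promoter of H2-Ab1 is not used here. A search of all RefSeq promoter windows of 300 bases, from 250 before to 50 after the start, asked for GCAAC followed by GATTGG at 25 to 35 bases on either strand. Of 32851 windows 0.204% held this pair, while 35.2% held GCAAC and 16.1% held GATTGG on either strand. The motifs do not overlap at these distances, and both the motifs and the distance were chosen after the promoters of the members had been seen. Among 577 panel genes with a window, 5 held the pair, namely H2-Aa, H2-Eb1, H2-Ob, the proteoglycan gene Sdc1 and the ubiquitin-conjugating enzyme gene Ube2c.

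Partner genes are shown for comparison, since H2-Oa encodes the alpha chain that pairs with H2-Ob, and H2-DMb1 and H2-DMb2 encode beta chains of H2-DM. The H2-Oa stretch (chr17:34092293-34092346, plus strand) has both cores 32 bases apart. In H2-DMb1 (chr17:34153087-34153140, plus strand) and H2-DMb2 (chr17:34145116-34145169, plus strand) only GATTGG was found by exact match. At the distance where H2-Oa has GCAAC, H2-DMb1 reads gtaac and H2-DMb2 reads ttaac. The search took exact cores only, so it does not show that the DM genes lack an X box.
H2-Oa: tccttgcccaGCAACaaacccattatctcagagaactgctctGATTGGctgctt
H2-DMb1: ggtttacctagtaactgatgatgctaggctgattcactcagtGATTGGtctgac
H2-DMb2: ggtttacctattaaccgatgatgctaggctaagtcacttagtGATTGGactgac

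Signals are reporter counts multiplied by 1 factor per library, as deposited, so a signal compares 1 gene between libraries and not the abundance of different genes. The deposited values of the negative control probes were taken as counts, without the factor. The background threshold, their mean plus 2 SD multiplied by the factor of the library, lay between 4.33 and 40.4 over the libraries. All 48 member values were above it, from 1.96 times the threshold upward. Summed gene counts ran from 31901 to 508829 per library, with control replicate 1 (293538) and G007-LK replicate 1 (508829) the deepest. Member values rest on as few as 17 counts, in control replicate 3, where the 95% exact Poisson interval of the H2-Aa signal of 66.6 is 38.8 to 106.6 and covers counting error only. The counts of mice within a group were further apart than counting error gives (chi-square of at least 3.41 per degree of freedom in each pair).

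**Figure D1:**
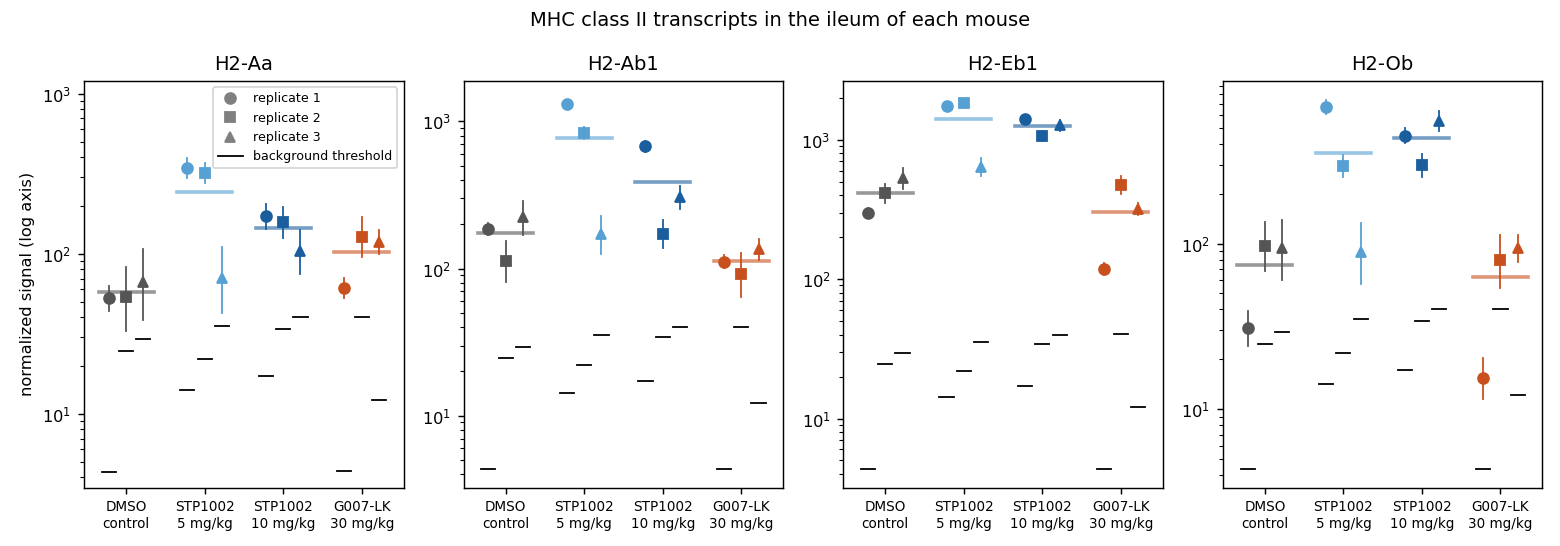
Normalized signal of H2-Aa, H2-Ab1, H2-Eb1 and H2-Ob (log axis) in each mouse, by group, with 95% counting intervals as vertical lines, the arithmetic group mean as a horizontal bar and the background threshold of each library as a black dash. Replicates 1 and 2 at 5 mg/kg of STP1002 stand above all control mice for every gene, and replicate 3 stands near them.

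At 5 mg/kg of STP1002, signals of all 4 class II genes were several-fold above control in 2 of 3 mice, and no gene passed the test. H2-Aa read 52.9, 53.9 and 66.6 in control replicates 1 to 3, and 343.9, 318.4 and 70.7 in the treated mice. H2-Ab1 read 185.9, 113.2 and 223.2 in control mice against 1308.9, 833.5 and 171.1. For both chains of I-A the first and second treated mice were far above the control mice. The third was just above the highest control mouse for H2-Aa and inside the control range for H2-Ab1.

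H2-Eb1 read 299.96, 412.2 and 528.6 in control mice and 1734.1, 1828.8 and 639.9 at 5 mg/kg. H2-Ob read 30.8, 97.0 and 94.0 in control mice and 671.1, 295.1 and 89.3 at this dose. Again replicates 1 and 2 were high. Replicate 3 was the lowest of the treated mice for all 4 genes and overlapped control for H2-Ob and H2-Ab1.

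Mean H2-Eb1 signal was 413.6 ± 114.3 in control mice and 1400.9 ± 660.8 at 5 mg/kg (SD over 3 mice each), and mean H2-Ab1 signal was 174.1 ± 55.96 and 771.2 ± 571.4. The log2 fold changes on the log2(signal + 1) scale were 1.77 ± 0.59 (SE) for H2-Aa, 1.77 ± 0.64 for H2-Ab1, 1.65 ± 0.53 for H2-Eb1 and 1.97 ± 0.75 for H2-Ob. Their 95% intervals ran from 0.51 to 3.02, 0.40 to 3.13, 0.54 to 2.76 and 0.38 to 3.56. By limma, with Benjamini-Hochberg adjustment over all 780 genes, the adjusted p was 0.998 for each, and 0 of 4 members were called, as were 0% of all genes. At an unadjusted limma p under 0.05, all 4 members were higher, as were 2.18% of all genes (2.31% in either direction). By this p H2-Eb1 ranked 3, H2-Aa 5, H2-Ab1 9 and H2-Ob 11 among 780 genes.

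On the deposited scale the 3 treated mice all exceeded the highest control mouse for H2-Aa and H2-Eb1, which held for 2.82% of all genes. For H2-Aa the lowest treated mouse rested on 19 counts and the highest control mouse on 17. With each library rescaled by its median ratio to the panel, H2-Eb1 stayed above control and H2-Aa overlapped it. The median log2 fold change of the 4 members was 1.77, beside 0.12 for all genes. Without replicate 3 of this dose the values were 2.51 for H2-Aa, 2.63 for H2-Ab1, 2.14 for H2-Eb1 and 2.74 for H2-Ob, and none was called. Without the 2 deepest libraries H2-Ab1 was called (limma adjusted p = 0.0335), and after rescaling of those 10 libraries it was not. In whole tissue, a change in the number of class II cells and a change in transcript per cell cannot be told apart.

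At 10 mg/kg, H2-Ob and H2-Eb1 stood above control in all 3 mice on the deposited scale, with no gene called. H2-Ob read 450.2, 299.3 and 552.6, and its lowest treated mouse was about as high as the second mouse of the lower dose. H2-Eb1 read 1401.5, 1066.7 and 1270.0, a narrow range with every value at least as high as 1066.7 where the highest control mouse had 528.6. Group means were 434.0 ± 127.4 (SD, n = 3) for H2-Ob, against 73.9 ± 37.4 in control mice, and 1246.0 ± 168.7 for H2-Eb1.

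The I-A chains were less uniform at this dose. H2-Aa read 171.5, 157.3 and 103.9, all above the control mice. H2-Ab1 read 678.0, 172.7 and 304.2, so that replicate 2 lay within the control range.

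Log2 fold changes at 10 mg/kg were 2.66 ± 0.75 (SE) for H2-Ob, 1.62 ± 0.53 for H2-Eb1, 1.28 ± 0.59 for H2-Aa and 0.97 ± 0.64 for H2-Ab1, at a limma adjusted p of 0.464 each. No member (0 of 4) and 0% of all genes were called. The 95% intervals were 1.07 to 4.25, 0.51 to 2.73, 0.03 to 2.54 and -0.39 to 2.33. H2-Ob ranked 2 of 780 by p (unadjusted p = 0.00259, limma). At an unadjusted p under 0.05, 3 of 4 members were higher (all but H2-Ab1), where 4.1% of all genes (32) were higher and 4.62% differed in either direction. With the replicate number as a block it was again 3 members, and 226 of 780 genes were higher. On the deposited scale groups did not overlap for 3 of 4 members, and 9.36% of all genes were higher in this way. After rescaling by the median ratio to the panel, H2-Ob alone kept this separation.

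The panel was shifted in its median at this dose, with a log2 fold change of 0.69 over all genes, beside 1.45 for the members. Not every gene was higher, and 2.82% were lower than control without overlap. When each library was rescaled by its median ratio to the panel, the median of all genes was 0.01 and the members had 1.97 (H2-Ob), 0.92 (H2-Eb1), 0.59 (H2-Aa) and 0.28 (H2-Ab1). H2-Ob passed the threshold in a fit of these 2 groups alone (limma adjusted p = 0.0498) and in a fit without the 2 deepest libraries (adjusted p = 0.0035). After rescaling those 10 libraries it did not, and no member was then called in any comparison.

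**Figure D2:**
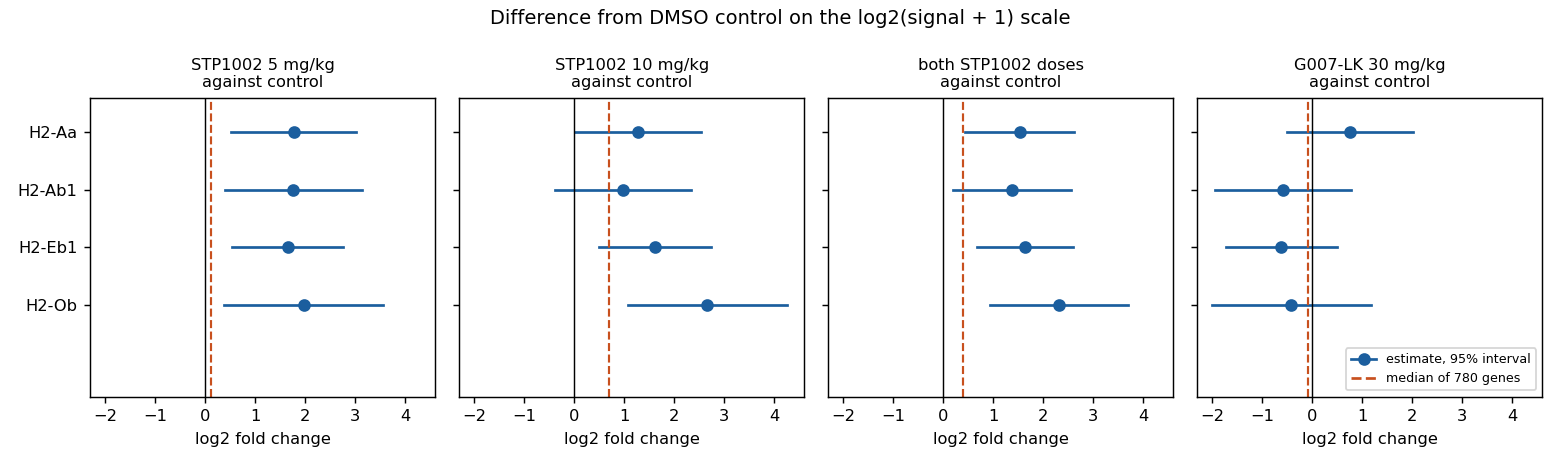
Log2 fold change against DMSO control with its 95% interval for the 4 class II genes in 4 comparisons, with a dashed line at the median of all 780 genes. With STP1002 all estimates lie right of that line, by the least for H2-Ab1 at 10 mg/kg, and with G007-LK every interval spans 0.

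Taken over both STP1002 doses (6 mice against 3), H2-Ob had a log2 fold change of 2.32 ± 0.65 (SE) and H2-Eb1 of 1.63 ± 0.46, at a limma adjusted p of 0.408 each. H2-Aa had 1.52 ± 0.51 (adjusted p = 0.69) and H2-Ab1 1.37 ± 0.56 (adjusted p = 0.817), so that 0 of 4 members were called, as were 0% of all genes. At an unadjusted limma p under 0.05 all 4 members were higher, against 3.46% of all genes, or 27 (3.85% in either direction). With the replicate number as a block it was again 4 members, and 76 of all genes. On the deposited scale all 6 treated mice exceeded the highest control mouse for H2-Aa and H2-Eb1, as for 1.92% of all genes. After median-ratio rescaling both genes overlapped control. Rescaled H2-Aa was 91.8 in control replicate 1 and 66.7 in replicate 3 at 5 mg/kg. Rescaled H2-Eb1 was 521.2 in control replicate 1 and 500.8 in replicate 2 at 10 mg/kg. Without the 2 deepest libraries H2-Ob was called (limma adjusted p = 0.00875), again not after rescaling. With all libraries rescaled by median ratio the 4 estimates were 1.91 for H2-Ob, 1.22 for H2-Eb1, 1.12 for H2-Aa and 0.96 for H2-Ab1.

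Set against each other, the doses of STP1002 gave differences within the spread of the mice. From 5 to 10 mg/kg the log2 difference was -0.49 ± 0.59 (SE) for H2-Aa, -0.80 ± 0.64 for H2-Ab1, -0.03 ± 0.53 for H2-Eb1 and 0.69 ± 0.75 for H2-Ob (limma adjusted p from 0.654 to 0.969). The 95% intervals ran from -1.74 to 0.77 for H2-Aa, -2.16 to 0.57 for H2-Ab1, -1.14 to 1.08 for H2-Eb1 and -0.90 to 2.28 for H2-Ob. None of the 4 members and 0% of all genes were called, and at an unadjusted p under 0.05 it was 0 members and 2.31% of all genes. The ranges of the doses overlapped for every member, while 8.72% of all genes were higher at 10 mg/kg without overlap. In order of group mean, STP1002 at 5 mg/kg was highest for H2-Aa, H2-Ab1 and H2-Eb1, and 10 mg/kg for H2-Ob. Of neighbours in these orders, only H2-Eb1 at 10 mg/kg and in control mice had ranges that did not overlap on the deposited scale.

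With G007-LK no class II gene passed the test, and H2-Aa alone had a positive estimate. H2-Aa read 61.4, 127.8 and 118.4, so 2 of 3 mice were above all control mice and the other within their range. H2-Ab1 read 111.2, 92.0 and 135.4, with 2 mice below the lowest control mouse.

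H2-Eb1 read 118.5, 472.9 and 318.5 after G007-LK, and H2-Ob 15.4, 79.2 and 93.7. Replicate 1 was the lowest of the 12 libraries for both genes. This is also the deepest library, and control replicate 1, the second deepest, was the next lowest for both. Without these 2 libraries the log2 fold change against control was -0.27 for H2-Eb1 and -0.15 for H2-Ob.

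Log2 fold changes against control were 0.75 ± 0.59 (SE) for H2-Aa, -0.58 ± 0.64 for H2-Ab1, -0.62 ± 0.53 for H2-Eb1 and -0.42 ± 0.75 for H2-Ob, with limma adjusted p between 0.718 and 0.886. No member was called (0 of 4), where 3.46% of the panel was called (27 genes, or 63 with the replicate number as a block) and 2.31% was called higher. At an unadjusted p under 0.05 it was 0 members, with 7.82% of all genes higher and 13.2% in either direction. Groups overlapped for all 4 members, while 10.1% of all genes were higher and 7.95% lower without overlap. The 95% intervals ran from -0.50 to 2.01 for H2-Aa, -1.94 to 0.78 for H2-Ab1, -1.73 to 0.49 for H2-Eb1 and -2.01 to 1.17 for H2-Ob. Without G007-LK replicate 1 the value of H2-Ob was 0.39 and that of H2-Eb1 -0.05, and without G007-LK replicate 2 that of H2-Eb1 was -1.05. Dose, route and schedule differ between the compounds, so STP1002 and G007-LK were not tested against each other.

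H2-DM, the catalyst that exchanges peptides on class II, was measured through H2-DMa, H2-DMb1 and H2-DMb2, the other genes of the class II pathway list on the panel. H2-DMb1 read 23.3, 67.4 and 62.7 in control mice, 220.0, 176.7 and 48.4 at 5 mg/kg of STP1002, 120.6, 142.0 and 172.4 at 10 mg/kg, and 10.3, 69.0 and 80.04 with G007-LK. At 5 mg/kg replicates 1 and 2 were high and replicate 3 was within the control range, as for H2-Ob. Over both STP1002 doses the log2 fold changes were 1.26 ± 0.59 (SE) for H2-DMa, 1.504 ± 0.68 for H2-DMb1 and 1.17 ± 0.83 for H2-DMb2, all at a limma adjusted p of 0.817. None of these 3 genes was called in any comparison.

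Ratios of signals within a library do not depend on how libraries are scaled. The size of a ratio also reflects probe efficiency, so only its differences between libraries are read, and of 30 ratios computed those given here were chosen after the values were seen. The log2 ratio of H2-Ob to H2-DMb1, the inhibitor over a chain of its target, was 0.40 to 0.58 in control mice, 0.74 to 1.61 at 5 mg/kg, 1.08 to 1.90 at 10 mg/kg and 0.20 to 0.58 with G007-LK. All 6 STP1002 mice were above all control and G007-LK mice, including replicate 3 of the lower dose (0.88). That ratio rests on 24 counts of H2-Ob and 13 of H2-DMb1. The highest control ratio, in replicate 3, rests on 24 and 16 counts. Whether the gap exceeds counting error was not tested. Set against H2-DMb1 in the same way, 0.128% of the other panel genes (1 of 779, H2-Ob itself) were higher in every STP1002 mouse than in any control mouse. Set against H2-DMa the ratio of H2-Ob overlapped between control (0.19 to 0.47) and each STP1002 dose (0.34 to 2.20 and 0.45 to 2.07). With G007-LK the ratio to H2-DMa was -0.99 to -0.80, below all control and STP1002 mice. Whether that gap exceeds counting error was not tested. Set against H2-DMb2 the ratio of H2-Ob was -0.27 to 1.04 in control mice. Both STP1002 doses overlapped this range (0.50 to 2.26 and 0.18 to 2.69), as did G007-LK.

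The log2 ratio of H2-Aa to H2-Eb1 was -2.99 to -2.50 in control mice, -3.18 to -2.33 and -3.61 to -2.76 at 5 and 10 mg/kg of STP1002, and -1.89 to -0.95 with G007-LK. The 3 G007-LK mice were above the other 9 mice. Of the other genes on the panel, 14% (109 of 779, H2-Aa included) had a ratio to H2-Eb1 that was higher in every G007-LK mouse than in any control mouse. H2-Aa over H2-Ab1 ranged from -0.86 to 0.47 with G007-LK and from -1.81 to -1.07 in control mice, and in 1 mouse at 10 mg/kg of STP1002 it was as high as -0.13. Set against H2-Ab1, 16% of the other panel genes (125 of 779, H2-Aa included) were higher in this way, so such a shift was common with G007-LK for either beta chain.

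**Figure D3:**
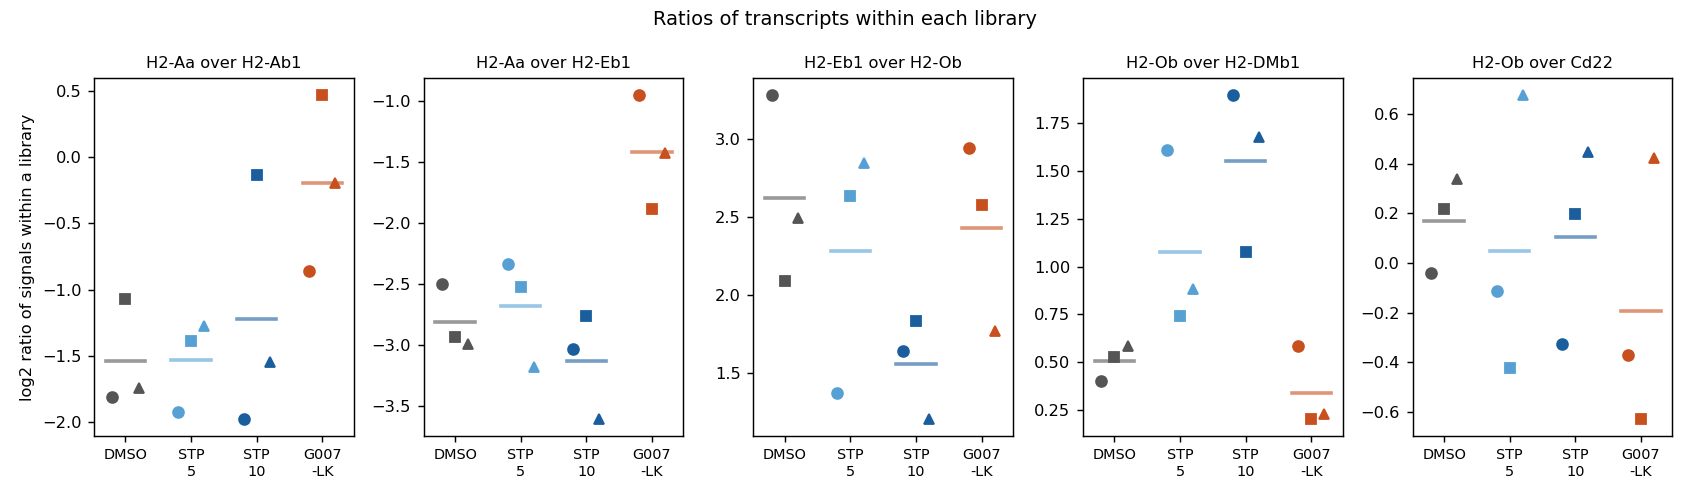
Log2 ratio of signals within each library for 5 pairs of genes, by group, with points for mice (circle, square and triangle for replicates 1, 2 and 3) and bars for group means. H2-Aa over H2-Eb1 is highest in the 3 G007-LK mice, and H2-Ob over H2-DMb1 is higher in all 6 STP1002 mice than in control mice.

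The 4 members varied together over the 12 libraries. On the log2 scale Pearson's r was 0.95 between H2-Eb1 and H2-Ob and 0.74 to 0.80 for the other pairs, across 12 libraries that share groups, depth and scaling factors. Within groups, from deviations about the group means, H2-Eb1 and H2-Ob had r = 0.89, and H2-Ab1 had 0.53 with H2-Eb1 and 0.54 with H2-Ob.

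Outside the class II genes, the panel gene most like the mean of the 4 members was Cd22, an inhibitory receptor of B cells (r = 0.965 over 12 libraries, Spearman's rho = 0.867, r = 0.945 without the 2 deepest libraries). The B cell kinase gene Blk (r = 0.946) and H2-DMb1 (0.907) were also among the 5 most alike. After median-ratio rescaling those 5 included Cd22 (r = 0.929, rho = 0.636), Blk (r = 0.908, rho = 0.699) and the survival gene Bcl2 (r = 0.898, rho = 0.762). Blk lay at or below background in all control and G007-LK libraries.

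Cd22 read 31.7, 83.5 and 74.4 in control mice, 726.5, 395.1 and 55.8 at 5 mg/kg of STP1002, 564.1, 260.9 and 405.6 at 10 mg/kg, and 20.0, 122.7 and 69.8 with G007-LK. Replicate 3 of the lower dose was within the control range, and all mice at 10 mg/kg were above it. Ms4a1, which encodes the B cell surface protein CD20, read 18.1, 105.1 and 113.6 in control mice, 149.8, 138.4 and 96.7 at 5 mg/kg, 96.5, 251.3 and 149.6 at 10 mg/kg, and 14.8, 130.4 and 111.5 with G007-LK. Its ranges at both STP1002 doses overlapped the control range. Over the 12 libraries the log2 ratio of H2-Ob to Cd22 stayed between -0.63 and 0.68, while H2-Ob itself ranged from 15.4 to 671.1. Cd22 was picked for its likeness to the members in these same libraries, so a narrow ratio follows in part from that choice. The log2 ratio of H2-Ob to Ms4a1 ran more widely, from -0.72 to 2.22.

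**Figure D4:**
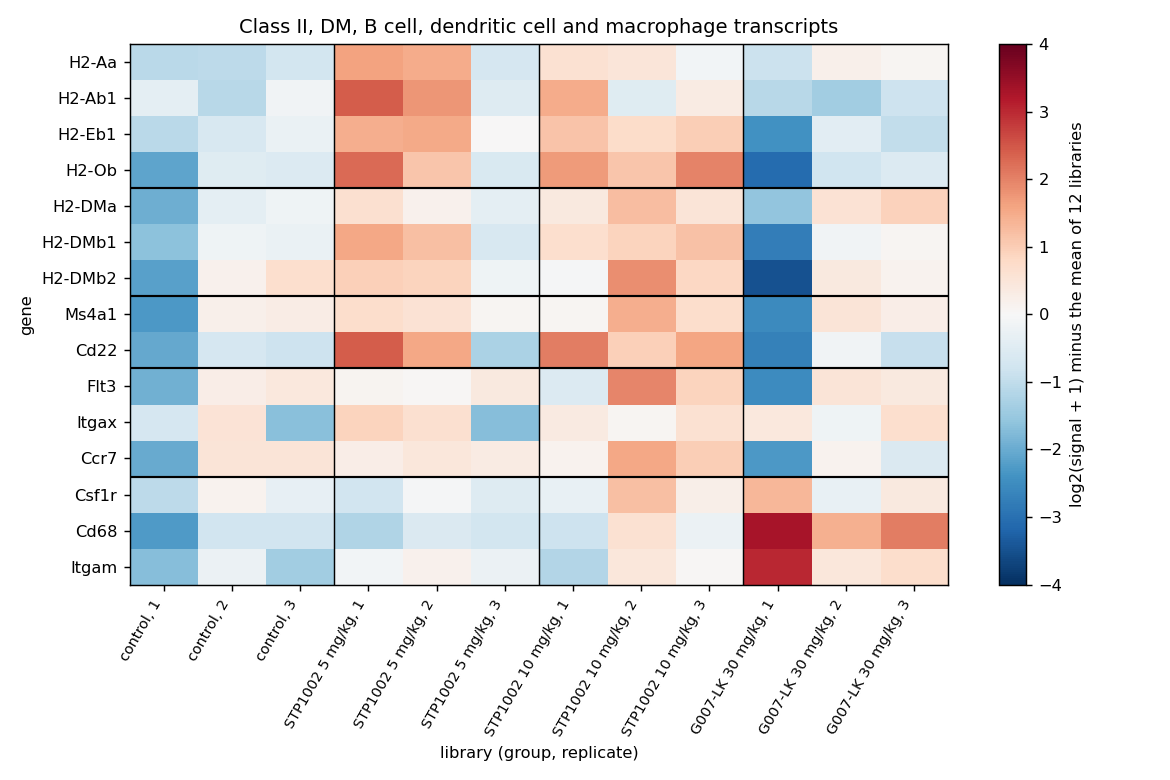
Log2(signal + 1) of class II, partner and marker genes in the 12 libraries, each centred on its mean over the libraries, in blocks for the 4 members, H2-DM, B cell, dendritic cell and macrophage markers. The members, H2-DMb1 and Cd22 are high (red) in replicates 1 and 2 at 5 mg/kg of STP1002, and Cd68 is high in the G007-LK libraries.

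Markers of cells that carry class II were read as whole lists. Of 6 B cell markers measured, none was called with STP1002, and all 6 had positive estimates at both doses. Their median log2 fold change was 1.74 at 5 mg/kg and 1.92 at 10 mg/kg, and 0.04 with G007-LK. Positive estimates were common in the panel: 496 of 780 genes had one at 5 mg/kg, and the median of all genes was positive at 10 mg/kg. Summed signals of the list were 94.4 to 419.0 in control mice, 372.0 to 1813.6 at 5 mg/kg, 1039.3 to 1181.8 at 10 mg/kg and 101.6 to 490.8 with G007-LK. In each group 4 of the 6 were above background in all 3 mice, and the others were not. Ms4a1 and Cd22 were above background in all libraries, and the part of B cells in the class II values was not tested.

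The 3 dendritic cell markers Flt3, Itgax and Ccr7 summed to 41.0 to 196.7 in control mice, 174.9 to 183.4 at 5 mg/kg, 138.0 to 464.3 at 10 mg/kg and 43.2 to 178.9 with G007-LK. None of them was called in any comparison with control. Their median log2 fold change was 0.60 at 5 mg/kg and 1.18 at 10 mg/kg, and -0.12 with G007-LK. All 3 estimates were positive at each STP1002 dose, as were those of most panel genes. Itgax was at or below background in some libraries of every group. In replicates 1 and 2 at 5 mg/kg the sum (179.3 and 183.4) was below that of the highest control mouse. Leukocyte markers (Ptprc, Ptpn6 and Itgb2) summed to 117.5 to 133.0 in control mice, 171.1 to 1135.1 at 5 mg/kg, 245.6 to 633.8 at 10 mg/kg and 235.2 to 1054.1 with G007-LK. All treated mice were above the control mice for this sum on the deposited scale. After median-ratio rescaling the groups overlapped, with 106.2 to 231.1 in control mice, 161.4 to 1345.8 and 115.3 to 654.0 at 5 and 10 mg/kg, and 209.3 to 1865.6 with G007-LK.

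Of 8 macrophage and monocyte markers measured, 4 were called higher with G007-LK, where 2.31% of all genes were called higher. None was called lower, though not every marker had a mean above control, and none was called with STP1002. Cd68, a lysosomal protein of macrophages, was among those called higher (log2 difference 3.51, SE 0.56, limma adjusted p = 0.00178). The sums were 733.4 to 990.7 in control mice, 848.6 to 1279.8 and 1191.1 to 1908.8 at 5 and 10 mg/kg of STP1002, and 3741.4 to 6232.7 with G007-LK. Within the epithelial list 3 of 5 genes were called lower with G007-LK, where 3.46% of all genes were called in either direction. The sum of the list was 460.4 to 1620.4 against 4103.6 to 10364.6 in control mice. The part of this shift in the class II values was not tested.

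MHC class I genes, which present peptides made inside the cell, had a median near that of all genes at 5 mg/kg. Of 13 measured none was called in any comparison with control, and their median log2 fold change was 0.08 at 5 mg/kg and 0.53 at 10 mg/kg of STP1002, where all genes had 0.12 and 0.69. Summed signals were 4574.5 to 11216.4 in control mice, 4061.0 to 9735.9 and 5546.2 to 6770.3 at the lower and higher dose, and 6252.1 to 14588.6 with G007-LK. B2m, the invariant light chain, had 0.12 ± 0.73 (SE) at 5 mg/kg.

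Genes of the interferon gamma axis, the cytokine pathway that induces CIITA, had medians of 0.19 at 5 mg/kg, 1.01 at 10 mg/kg and 0.26 with G007-LK over 12 measured genes. Cxcl9, a chemokine induced by interferon gamma, read 29.1, 132.0 and 121.4 in control mice and 68.4, 108.4 and 141.4 at 5 mg/kg. Its log2 difference from control was 0.38 with an SE of 0.65 (limma adjusted p = 0.998). Cd274, which encodes the inhibitory ligand PD-L1, read 29.1, 62.0 and 74.4 in control mice, 114.6, 91.7 and 78.1 with the lower STP1002 dose, and 83.1, 274.3 and 167.3 with the higher one. On the deposited scale Cd274 was above all control mice at both doses, and Cxcl9 overlapped them. Such separation held for 2.82% of all genes at 5 mg/kg, 9.36% at 10 mg/kg and 1.92% over both doses. For Cd274 the lowest treated mouse, at 78.1, was close to the highest control mouse, at 74.4. None of the list was called with STP1002.

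With G007-LK only Cd274 was called higher among those 12 genes, from 55.1 ± 23.4 (SD, n = 3) to 468.0 ± 455.3 (log2 difference 2.71, SE 0.65, limma adjusted p = 0.0276). Means of the other genes of this list lay on both sides of control. Of all genes, 2.31% were called higher. Costimulatory genes, whose products act beside class II on antigen-presenting cells, were 4 on the panel, and none was called. Among them Cd86 had 0.38 ± 0.59 (SE) at 5 mg/kg, 1.12 ± 0.59 at 10 mg/kg and 0.23 ± 0.59 with G007-LK, and Cd40 had 0.97 ± 0.79, 1.33 ± 0.79 and -0.21 ± 0.79.

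**Figure D5:**
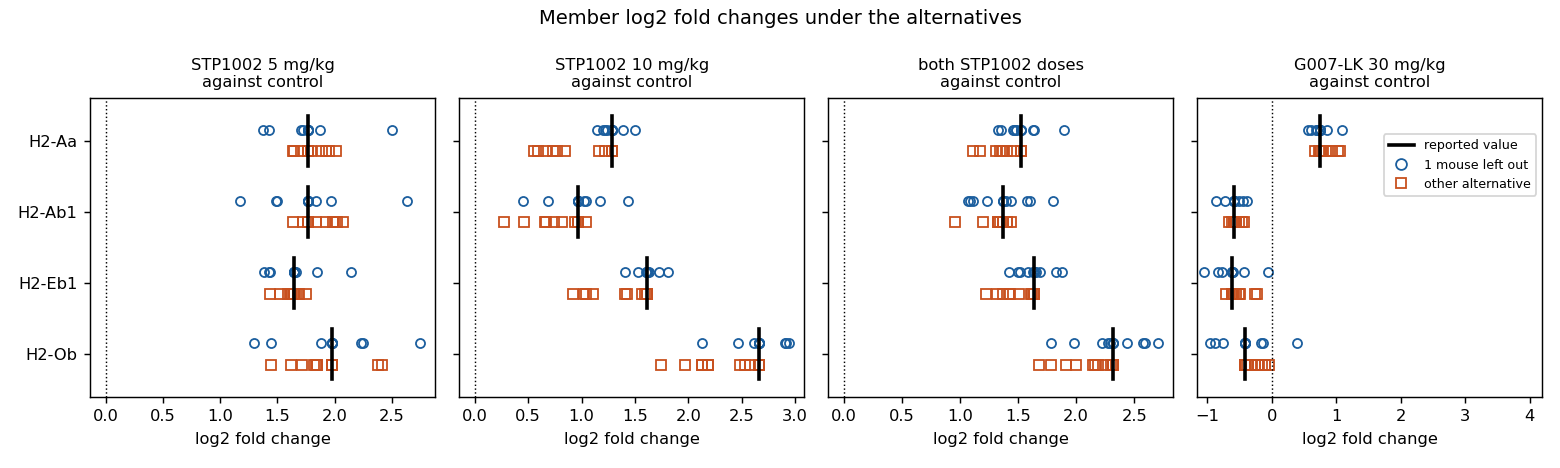
Log2 fold change of each class II gene against control as reported (black bar), with 1 mouse left out (circles) and under the other alternatives (squares). All STP1002 values stay above 0, and H2-Ob with G007-LK lies on both sides of it.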

How the data were processed

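Per the labels' protocols, ileum RNA that passed a minimum RNA integrity number was hybridised to an nCounter panel of mouse tumour signalling genes. The authors deposited a normalized signal on a linear scale for 780 genes, with 8 negative and 6 positive control probes. The gene values are whole counts times 1 factor per library, as the deposited signal itself shows: within a tolerance of 0.0051, 98.7% to 100% of genes came out whole, and the rest lie at the floor of 1. Software, background rule and reference genes of the normalization are not given in the sources used here. The design text gives 3 mice per group. Extraction and run batches are not given in the sources used here.

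Limma 3.58.1 (R 4.3.3) was fitted to log2(signal + 1) of all genes over 12 libraries, with a mean for each of 4 groups and eBayes with a trend (total degrees of freedom 16.8). Tests were two-sided, adjusted by Benjamini-Hochberg over 780 genes and called at an adjusted p under 0.05. The count models edgeR 4.0.16 and DESeq2 1.42.0 were run on recovered counts as alternatives. The fit was also run on simulated counts, with a pass condition set at a fixed dispersion and not at the one estimated from these data. That check does not give the error rate of the fit in these libraries. The other alternatives changed the pseudocount (10), background floor, filter, scaling, samples, block or weights.

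Deviations of mice of the same number correlated between control and STP1002 10 mg/kg (r of 0.776, 0.570 and 0.159) and between control and G007-LK (0.600, 0.477 and 0.307). With STP1002 5 mg/kg this did not hold in every pair (0.364, 0.242 and 0.028). Different numbers also correlated. Control replicate 3 had higher values with replicate 2 at 10 mg/kg (0.567) and of G007-LK (0.429) than with its own number. Control replicate 2 had 0.376 and 0.404 with replicate 3 of these groups. Over all groups, r ran from -0.701 to 0.567 in 36 pairs of different number (median -0.251). In 18 pairs of the same number it ran from 0.011 to 0.776 (median 0.311). Deviations of a gene sum to 0 within a group, so the 2 sets of pairs are not independent. Negative values for different numbers follow in part from positive values for the same number. The replicate block rests on these correlations alone, and whether mice were paired by number was not tested. Members and gene lists were chosen with earlier results of these data known. Named genes are the members, the measured genes of 4 pathway lists, the first 3 of each marker list and the 5 genes most correlated with the mean of the members on each scale; some of these are not reported here. Sdc1, Ube2c and the other promoter genes were named after the search. Symbols of all 4 members matched RefSeq, and 3 had a promoter window.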

Additional observations from a re-analysis of the deposited data

How the results depend on the processing

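The 20 member log2 fold changes were recomputed under 24 alternatives each, including 12 fits that leave out 1 mouse. Of 288 values of STP1002 against control, 0 changed sign. Array weights, whose estimation stopped before convergence, called 4 members at 5 mg/kg, 4 at 10 mg/kg, 4 over both doses, 1 with G007-LK (H2-Aa) and 3 between the doses, where they also called 17, 283, 32, 160 and 388 of all genes. Omission of the 2 deepest libraries called 1 member at 5 mg/kg (H2-Ab1, limma adjusted p = 0.0335), 1 at 10 mg/kg and 1 over both doses (H2-Ob, adjusted p = 0.0035 and 0.00875), and a fit of the compared groups alone 1 at 10 mg/kg (H2-Ob). The same omission with median-ratio rescaling, an alternative chosen after seeing the data, called 0. Without any 1 mouse the count stayed 0 in each comparison (0 to 0). With the replicate number as a block 0 members were called, the lowest adjusted p being 0.0951 (H2-Ob, both doses, limma). The edgeR and DESeq2 fits called 0 members.

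Signs reversed in 7 of 480 values. Between the doses, H2-Eb1 ranged from -0.52 to 0.23 with 1 mouse left out, and was above 0 when replicate 1 of the lower dose (0.19), its replicate 2 (0.23) or replicate 2 of the higher dose (0.08) was missing. H2-Ob had -0.23 with edgeR and -0.25 with DESeq2, and ranged from -0.081 (replicate 3 of the lower dose missing) to 1.37 with 1 mouse left out. With G007-LK, H2-Ob ranged from -0.95 to 0.39 in this way, the last when G007-LK replicate 1 was missing. The cause was not tested. With 3 mice a group and 17 counts behind the lowest member value, differences of the size of the intervals given above could not be resolved.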
